A study of Mus musculus with 6 samples.

Results

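The cytosolic ribosomal protein genes are the genes for the protein components of the ribosomes that translate nuclear-encoded mRNA. They were taken as every probe whose platform annotation gave exactly 1 gene symbol made of Rpl or Rps and a digit, or Rplp0, Rplp1, Rplp2 or Rpsa, without pseudogenes and without the Rps6k kinases. The rule used names only and no measured value. It found 64 genes with 159 probes among 3939 named genes, 41 genes of the large subunit (109 probes) and 23 of the small subunit (50 probes), on 18 chromosomes. The name rule also took in Rps19bp1, whose product binds Rps19 and is not itself a ribosomal subunit, and Rps27l and Rpl3l, close relatives of Rps27 and Rpl3.

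The study hybridised total RNA of mouse skeletal muscle to 6 spotted arrays, each with 2 channels and each standing for 1 group. Of the groups, 5 had been paced electrically for 3 h by an implanted device and were taken 0 h, 1 h, 3 h, 8 h or 24 h later. The last group was sham-operated, carried an inactive device and was matched in time to 0 h. Channel 2 of every array held the same reference RNA from control muscle, called Pre. The labels give neither strain, age and muscle nor the number of mice behind each RNA. With 1 array per group no difference below has a replicate check and no p-value was computed, and at 1 h to 24 h a difference from sham mixes pacing with elapsed time. Values are log2 ratios centred on each array's median. Their direction is likely muscle sample over Pre, read from the labels' naming of channel 2, since the dyes are not stated.

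The ribosome is built from a small subunit, which binds mRNA and decodes it, and a large subunit, which joins amino acids and releases the growing chain through a tunnel. Most of its proteins are made in equal numbers, and in many tissues their mRNAs belong to the most abundant ones. Most of these mRNAs begin with a C followed by a run of pyrimidines, the terminal oligopyrimidine tract, through which the growth-sensing kinase mTORC1 adjusts their translation. Muscle that grows or remodels after contraction is known for raising its ribosome content.

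The start regions below mark runs of C and T at annotated starts. They are given for the members highest and lowest at 24 h in each subunit and for the longest run of each subunit. They are RefSeq sequences of GRCm38.p6, 30 bases each, 15 before the annotated start and 15 from it on, on the strand of the gene. Capitals mark an unbroken run of C and T that includes the start base and is at least 5 long. A marked run can have T at the start base and can reach before it, so it need not be the tract itself.
Rpl23, highest of the large subunit at 24 h, chr11:97782425-97782454, minus strand: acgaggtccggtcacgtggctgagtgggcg
Rpl3l, lowest of the large subunit at 24 h, the first of its annotated starts, chr17:24727811-24727840, plus strand: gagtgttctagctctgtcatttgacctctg
Rps15a, highest of the small subunit at 24 h, chr7:118116133-118116162, minus strand: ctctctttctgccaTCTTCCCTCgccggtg
Rps4x, lowest of the small subunit at 24 h, chrX:102189377-102189406, minus strand: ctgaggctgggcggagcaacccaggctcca
Rpl7a, longest run of the large subunit, chr2:26910792-26910821, plus strand: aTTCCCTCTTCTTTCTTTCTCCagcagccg
Rps10, longest run of the small subunit, chr17:27635230-27635259, minus strand: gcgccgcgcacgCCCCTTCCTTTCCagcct
The table held a start for 52 of the 64 genes, and 15 of them (28.8%) had such a run at a start. The share was 11.8% of all 27025 genes in the table and 5.80% of the 69 mitochondrial ribosomal protein genes. The search read the gene's strand only, and an annotated start can lie some bases from the true one. A start without a marked run therefore does not show that the mRNA lacks the tract. At 24 h the median log2 ratio to Pre was 0.58 for the 14 members with a run and 0.50 for the 33 without one, among members measured on all 6 arrays. Against sham at 24 h the order turned, at 0.26 with a run and 0.29 without. The median step from 8 h to 24 h was 0.27 with a run and 0.29 without. These differences were not tested.

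Of the 64 genes, 58 had a value on all 6 arrays, 40 of the large and 18 of the small subunit. Rpl31, Rps19 and Rps29 lacked a value at 3 h, Rps13 at 1 h, and Rps4x and Rps27l at 0 h. Counts and medians below are over the 58, beside the 3180 genes measured on all 6 arrays. Genes with 1 probe numbered 26. Between 90.6% (24 h) and 98.1% (sham) of the member probes were measured, against 87.3% (0 h) to 95.2% (8 h) of all 13872 probes. cDNA spots can bind close relatives and processed pseudogenes of these genes, so each value is uncertain as to the family member.

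Against Pre, most ribosomal protein genes stood higher on every array, with the highest medians at 24 h and, for the large subunit, in sham after that. Large subunit genes had median log2 ratios of 0.10 (0 h), 0.11 (1 h), 0.26 (3 h), 0.28 (8 h) and 0.52 (24 h), against 0.37 in sham. Small subunit genes had medians of 0.02 (0 h), 0.07 (1 h), 0.06 (3 h), 0.24 (8 h) and 0.48 (24 h), against 0.15 in sham. The 24 h medians correspond to 1.43-fold Pre for the large subunit and 1.39-fold for the small subunit. The median of all genes lay between -0.01 and 0.01 on each array.

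At 24 h 50 of the 58 genes (86.2%) stood above Pre, where 51.7% of all genes did. The same number, 50, stood above Pre at 8 h (background 51.3%) and in sham (background 48.5%). At 0 h 39 were above Pre (background 50.2%), at 1 h 47 (background 49.6%) and at 3 h 43 (background 50.9%). Of the 40 large subunit genes, 29 (0 h), 32 (1 h), 32 (3 h), 37 (8 h) and 36 (24 h) were above Pre, against 36 in sham. Of the 18 small subunit genes, 10 (0 h), 15 (1 h), 11 (3 h), 13 (8 h) and 14 (24 h) were, against 14 in sham. The small subunit shares at 0 h (55.6%) and 3 h (61.1%) were the closest to the background. All 6 arrays share the Pre RNA, so these counts are not independent of each other.

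**Figure D1:**
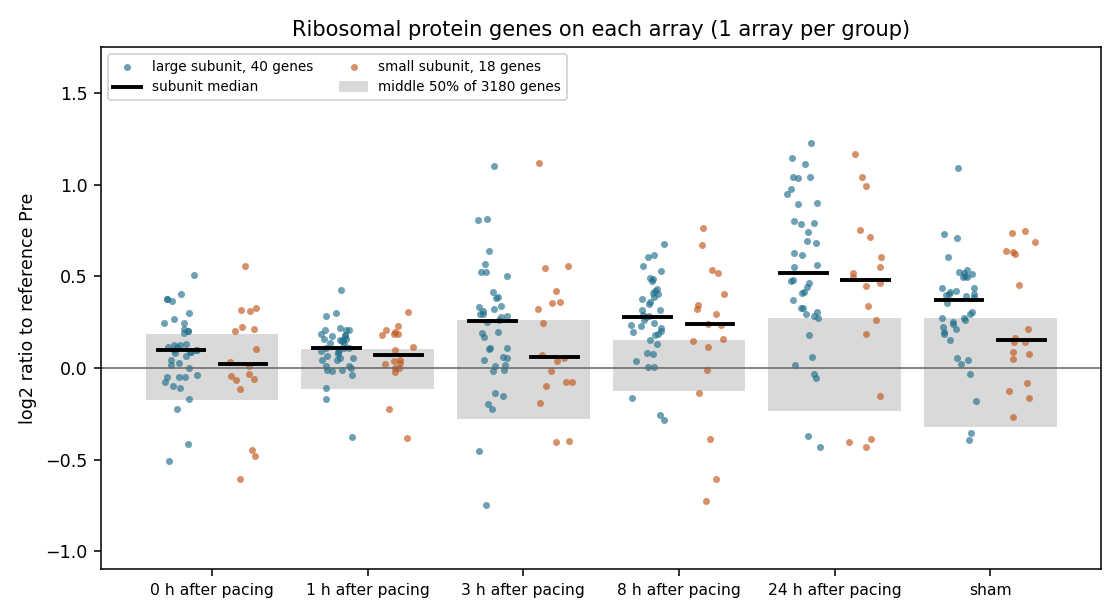
Log2 ratio to Pre of each ribosomal protein gene measured on all 6 arrays (vertical axis), by array (horizontal axis), with large subunit genes in blue, small subunit genes in orange, black bars for the subunit medians and grey boxes for the middle 50% of 3180 genes. The large subunit median lies above the grey box on every array but 0 h, and farthest from 0 at 24 h (0.52).

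A gene was called at 2-fold, a log2 value of 1 or more in size. At 24 h, 8 members were called higher than Pre and none lower (background 3.90% higher, 1.51% lower and 5.41% in either direction), namely Rpl23, Rpl11, Rpl10a, Rpl5, Rpl3, Rpl27a, Rps15a and Rps9. With the arrays scaled to a common spread, Rpl23 at 1.05 was the 1 member still called at 24 h against Pre. In that setting 72 of all 3180 genes were called higher and 28 lower. At 3 h, Rpl11 and Rps15a were called higher and none lower (background 2.83% higher and 4.97% in either direction). In sham, Rpl34 was called higher and none lower (background 1.82% higher and 3.33% in either direction). No member was called at 0 h (background 2.17% in either direction, 1.45% higher), at 1 h (background 0.849% in either direction, 0.0943% lower) or at 8 h (background 2.36% in either direction, 1.64% higher).

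Large and small subunit medians differed by 0.08 (0 h), 0.04 (1 h), 0.20 (3 h), 0.04 (8 h) and 0.04 (24 h), against 0.22 in sham, large minus small. For scale, the probes of 1 ribosomal protein gene had a median SD between 0.13 (1 h) and 0.42 (24 h). With genes of 2 or more probes alone, the difference was -0.057 (0 h), -0.032 (1 h), -0.091 (3 h), 0.010 (8 h) and -0.018 (24 h), against -0.0071 in sham, so the sign turned on every array but 8 h.

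Rpl5 and Rpl11 travel into the large subunit together with 5S ribosomal RNA, and when free they bind the p53 regulator Mdm2. Rpl5 stood at 0.38 (0 h), 0.19 (1 h), 0.57 (3 h), 0.41 (8 h) and 1.04 (24 h), against 0.05 in sham. Rpl11 stood at 0.09 (0 h), 0.28 (1 h), 1.10 (3 h), 0.55 (8 h) and 1.15 (24 h), against 0.73 in sham. Both were highest at 24 h, but in sham the Rpl11 probe was high and the Rpl5 probe near Pre. Each had 1 probe under the rule. A further probe, left out because its annotation names both Rpl5 and Dipk1a, read 1.28 at 24 h and 0.46 in sham, so its sham value was not near Pre. On the probes kept, Rpl5 was 1.99-fold and Rpl11 1.34-fold sham at 24 h.

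Among other large subunit genes called at 24 h, Rpl23, a protein of the face that meets the small subunit, was the highest. Rpl23 stood at 0.40 (0 h), 0.42 (1 h), 0.81 (3 h), 0.68 (8 h) and 1.23 (24 h), against 0.42 in sham. All of its values came from 1 of its 2 probes, and with exact zeros kept as values the 24 h ratio was 0.61. Rpl10a, the protein of the mobile L1 stalk, stood at 0.37 (0 h), 0.01 (1 h), 0.06 (3 h), 0.23 (8 h) and 1.11 (24 h), against 0.04 in sham. Rpl10a was 2.10-fold sham at 24 h, the only large subunit gene called against sham at that time, but 1 of its 2 probes was not measured at 24 h. On the other probe, measured on both arrays, the log2 difference was 0.80, under the threshold.

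Rpl27a was better backed by its probes. It stood at -0.10 (0 h), 0.09 (1 h), 0.01 (3 h), 0.36 (8 h) and 1.04 (24 h), against 0.30 in sham. Its 2 probes read 1.03 and 1.04 at 24 h, and their differences from sham were 0.67 and 0.80. Rpl36a stood at 0.98 at 24 h and 0.41 in sham, but its probes differed from sham by -0.09 and 1.23. Its relative Rpl36al stood at 0.13 (0 h), -0.38 (1 h), -0.75 (3 h), 0.40 (8 h) and 0.95 (24 h), against 0.19 in sham. It was the lowest large subunit gene at 1 h and 3 h, and the step of 1.15 up at 8 h over 3 h was the only one called between those times among members (background 2.26% in either direction). Rpl36al had 1 probe.

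Rpl3 lies at the peptidyl transferase centre, and Rpl3l replaces it in part of the ribosomes of striated muscle. Rpl3l stood at -0.08 (0 h), -0.01 (1 h), 0.28 (3 h), -0.16 (8 h) and -0.43 (24 h), against 0.25 in sham. It was the lowest large subunit gene at 24 h, at 0.62-fold sham, and both of its probes were below sham there, by -0.85 and -0.52 in log2 units. Rpl3 stood at 0.13 (0 h), -0.11 (1 h), -0.19 (3 h), 0.01 (8 h) and 1.04 (24 h), against 0.21 in sham. The 24 h mean of Rpl3 hid a disagreement, since 1 probe read 2.17 and the other -0.09. The 1.04 step from 8 h to 24 h, the 1 called among members there (background 0.786% in either direction), therefore came from a single probe. Lower Rpl3l at 24 h was seen on both probes, while higher Rpl3 was seen on 1 of 2.

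**Figure D2:**
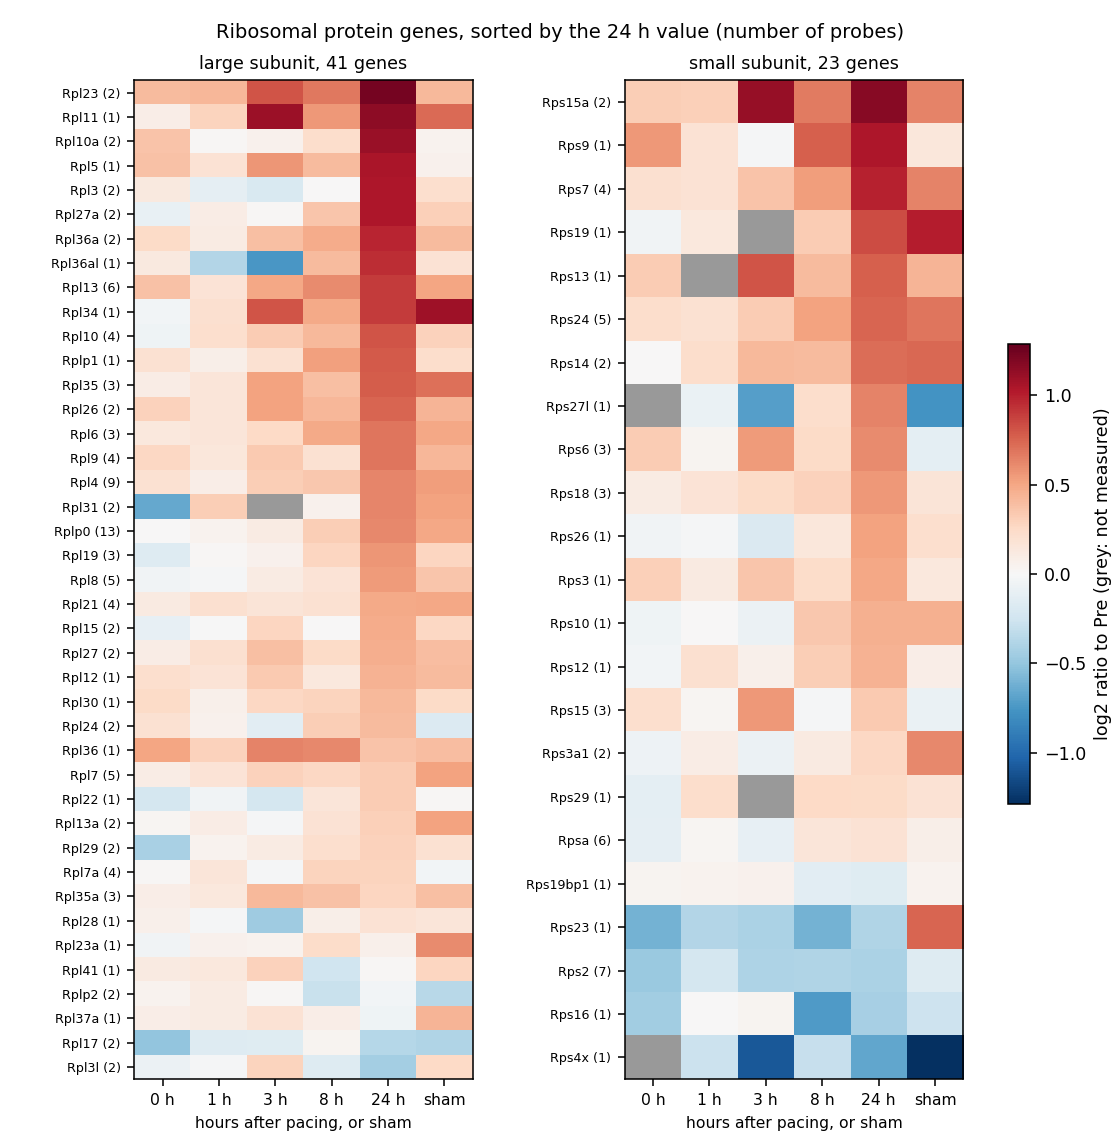
Log2 ratio to Pre (colour, red above and blue below Pre, grey not measured) of all 64 ribosomal protein genes in rows and the 6 arrays in columns, sorted by the 24 h value, with the number of probes after each name. Rpl3l and Rpl17 at the foot of the large subunit and Rps23, Rps2, Rps16 and Rps4x at the foot of the small subunit lie below Pre at 24 h.

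The stalk recruits elongation factors to the ribosome. Rplp0, which anchors it, had 13 probes, the most of any member, and stood at 0.00 (0 h), 0.05 (1 h), 0.10 (3 h), 0.31 (8 h) and 0.61 (24 h), against 0.50 in sham. Of its 13 probes, 12 lay above Pre at 24 h and 11 did in sham, and the 24 h difference from sham was 0.12 with a probe SD of 0.34. At 0 h Rplp0 was -0.50 from sham (probe SD 0.56), with 11 of 13 probes below sham. The acidic stalk proteins differed from each other: Rplp1 (1 probe) stood at 0.79 at 24 h and 0.22 in sham, whereas Rplp2 stood at -0.04 at 24 h and -0.35 in sham. The 2 Rplp2 probes read -0.02 and -0.05 at 24 h and -0.39 and -0.32 in sham, so both shared that low position. Rpl12, at the base of the stalk, stood at 0.44 at 24 h and 0.40 in sham.

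Proteins around the exit of the tunnel, the place where nascent chains meet targeting factors, were below sham at 0 h in 5 of 5 measured genes, with a median of -0.44. At that time 33 of all 40 large subunit genes were below sham, where 53.7% of all genes were above it, so this position was shared by most of the subunit. At 24 h 4 of the 5 were above sham, with a median of 0.07. Rpl23a was -0.66 from sham at 0 h and -0.55 at 24 h, while Rpl35 (3 probes, 2 of them measured at 0 h) was -0.61 at 0 h and 0.07 at 24 h. Rpl17 stood below Pre on 5 of 6 arrays, at -0.51 (0 h), -0.17 (1 h), -0.15 (3 h), 0.04 (8 h) and -0.37 (24 h), against -0.39 in sham. Its 0 h value came from probes that read 0.12 and -1.14. Rpl31, a sixth such gene, lacked a 3 h value and was -1.18 from sham at 0 h on both of its probes (-1.30 and -1.06).

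In several large subunit genes with many probes, nearly all of those probes lay above Pre at 24 h. Rpl4, which lines the tunnel, stood at 0.63 at 24 h and 0.54 in sham, with all 8 and all 9 measured probes above Pre, but 5 of 8 probes above sham at 24 h. Rpl13 stood at 0.90 at 24 h (probe SD 0.14, 5 probes) and 0.51 in sham, and all 5 probes measured on both arrays were above sham, by 0.13 to 1.03. Rpl10, which joins late and touches the bound tRNA, stood at 0.80 at 24 h and 0.29 in sham, with 3 of 4 probes above sham. Rpl9 stood at 0.68 at 24 h and 0.42 in sham, with 2 of 4 probes above sham (probe SD of the difference 0.76). Rpl8 stood at 0.55 at 24 h on 3 measured probes and 0.36 in sham on 5, with 2 of 3 above sham. Over the probes measured on both arrays, Rpl7 (5 probes), Rpl21 (3 probes) and Rpl7a (4 probes) had 24 h minus sham differences of -0.19, -0.03 and 0.32, within their probe SDs of 0.45, 0.56 and 0.44.

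**Figure D3:**
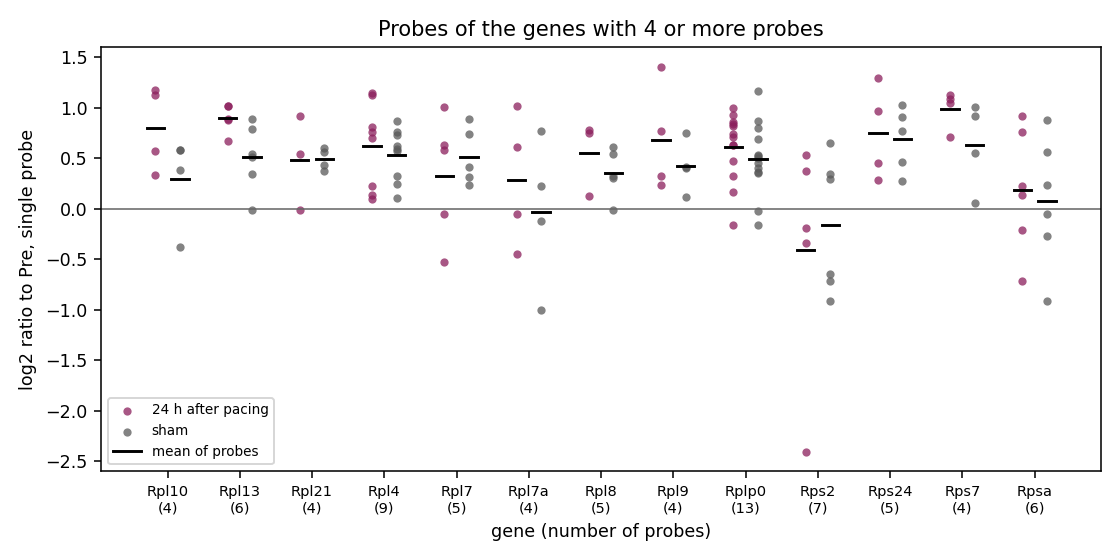
Log2 ratio to Pre of every measured probe (points) of the 13 ribosomal protein genes with 4 or more probes, at 24 h after pacing and in sham, with the mean of the probes as a black bar and the number of probes under each name. All Rpl4 and Rps7 probes lie above Pre in both groups, and 1 Rps2 probe lies at -2.41 at 24 h.

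In the small subunit, Rps15a, a protein of the body of the subunit, stood highest at 24 h. Rps15a stood at 0.31 (0 h), 0.31 (1 h), 1.12 (3 h), 0.67 (8 h) and 1.17 (24 h), against 0.64 in sham. Both of its probes were high at 24 h, at 1.36 and 0.98, and both were above sham, by 0.62 and 0.45. The 3 h value came from 1 probe, and with exact zeros kept it was 0.56. Rps7, one of the genes mutated in Diamond-Blackfan anaemia, stood at 0.99 at 24 h and 0.64 in sham, with 4 of 4 probes above sham. Rps24, another of these genes, stood at 0.75 at 24 h on 4 measured probes and 0.69 in sham on 5. On the 4 probes measured on both arrays sham stood at 0.79, and 1 of the 4 was above sham at 24 h. Rps6, the target of S6 kinase, stood at 0.61 at 24 h and -0.12 in sham, but its 3 probes differed from sham by -0.88 to 1.74. Rpsa, also known as a laminin receptor, stood at 0.19 at 24 h and 0.08 in sham with a probe SD of 0.61 at 24 h over 6 probes.

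Proteins that line the mRNA entry and the decoding site went different ways. Rps9 (1 probe) stood at 0.55 (0 h), 0.18 (1 h), -0.01 (3 h), 0.77 (8 h) and 1.04 (24 h), against 0.14 in sham, and was 1.87-fold sham at 24 h. Rps23, the decoding centre protein, was the opposite case. Rps23 stood at -0.60 (0 h), -0.38 (1 h), -0.41 (3 h), -0.60 (8 h) and -0.39 (24 h), against 0.75 in sham. Every paced array was therefore called lower than sham, by -1.13 (1 h) to -1.35 (0 h and 8 h), while none was called against Pre. Rps23 had 1 probe, and all 5 differences share its single sham value. Rps3 stood at 0.50 at 24 h and 0.14 in sham, and Rps15 at 0.34 at 24 h and -0.08 in sham.

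Rps2, at the mRNA entry, had 7 probes, and the range of its probes at 24 h was the widest of the genes with 4 or more. Rps2 stood at -0.48 (0 h), -0.23 (1 h), -0.40 (3 h), -0.39 (8 h) and -0.40 (24 h), against -0.16 in sham. Its probes ran from -2.41 to 0.54 at 24 h and from -0.91 to 0.65 in sham. Both of the 24 h extremes were spots annotated with the same clone accession, which read 0.29 and -0.72 in sham. Whether the spots hold the same DNA was not tested. Rps16 (1 probe) stood below Pre at -0.45 (0 h), -0.73 (8 h) and -0.43 (24 h), against -0.27 in sham, and near Pre at 1 h and 3 h.

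The 6 members that lacked an array took up some of the larger differences. Rps27l, a p53-responsive relative of Rps27, was 1.40 above sham at 24 h and 1.00 above it at 8 h, from a sham value of -0.77. Rps4x, from the X chromosome, was below Pre on all 5 arrays that measured it, at -0.67 at 24 h and -1.29 in sham. Rps19 was -1.05 from sham at 0 h and -0.17 at 24 h, with sham at 1.01. These had 1 probe each. Rps13 stood at 0.77 at 24 h and 0.43 in sham, and Rps29 at 0.25 at 24 h and 0.19 in sham. Rps19bp1, which is not a ribosomal subunit, stayed between -0.15 and 0.05 on all arrays.

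Against sham, medians of ribosomal protein genes lay lower right after pacing and, over all clones, higher a day later. On RefSeq-accession clones alone the large subunit median at 24 h was -0.030, with the sign turned, while the small subunit median kept its sign. Large subunit medians of paced minus sham were -0.27 (0 h), -0.26 (1 h), -0.05 (3 h), -0.01 (8 h) and 0.19 (24 h). Small subunit medians were -0.22 (0 h), -0.06 (1 h), -0.17 (3 h), -0.08 (8 h) and 0.21 (24 h). The median of all genes lay between 0.02 and 0.08. Of the 58 genes, those above sham numbered 11 (0 h), 12 (1 h), 23 (3 h), 26 (8 h) and 42 (24 h), where the shares of all genes above sham were 53.7%, 52.8%, 53.1%, 55.6% and 57.5%. In the large subunit they were 7, 6, 16, 18 and 30 of 40, in the same order of times. In the small subunit they were 4, 6, 7, 8 and 12 of 18. At 24 h Rpl10a was called higher (background 3.02%) and Rps23 lower (background 2.80%, and 5.82% in either direction). At 0 h Rps23 and Rpl34 were called lower and none higher (background 2.86% lower, 3.11% higher and 5.97% in either direction). Rps23 was the 1 member called, and lower, at 1 h (background 0.535% lower, 1.32% in either direction), at 3 h (background 0.818% lower, 2.14% in either direction) and at 8 h (background 1.57% lower, 1.67% higher, 3.24% in either direction). The low value of Rpl34 at 0 h, -1.13 from sham, goes with the highest sham value among members, 1.09, on 1 probe.

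The 6 arrays differed in overall spread, with robust SDs from 0.176 at 1 h to 0.495 in sham. When all 6 arrays were scaled to a common spread, the medians against sham became -0.16 (0 h), -0.03 (1 h), -0.01 (3 h), 0.19 (8 h) and 0.22 (24 h) for the large subunit. They became -0.19 (0 h), 0.02 (1 h), -0.12 (3 h), 0.17 (8 h) and 0.23 (24 h) for the small subunit. After scaling, the genes above sham numbered 20 (0 h), 22 (1 h), 26 (3 h), 41 (8 h) and 45 (24 h) of 58, where the scaled shares of all genes were 53.9%, 53.4%, 53.4%, 56.9% and 56.3%. The medians thus kept their side of sham at 0 h, 3 h and 24 h, and turned with the scaling at 8 h in both subunits and at 1 h in the small subunit.

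**Figure D4:**
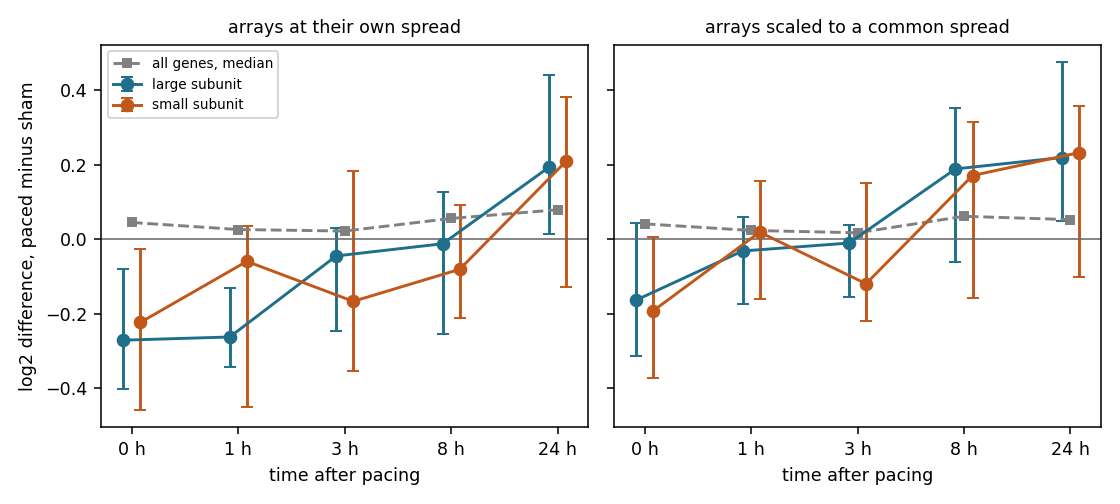
Median log2 difference between each paced array and sham (points) for large and small subunit genes, with the middle 50% of genes as bars and the median of all genes as grey squares, by time after pacing, with arrays at their own spread (left) and scaled to a common spread (right). Both subunits lie below 0 at 0 h and above 0 at 24 h in both panels, and at 8 h they lie above 0 only after scaling.

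Between successive times, the largest median step at the arrays' own spread was from 8 h to 24 h. The later minus earlier medians for the large subunit were 0.04 (1 h minus 0 h), 0.12 (3 h minus 1 h), 0.05 (8 h minus 3 h) and 0.28 (24 h minus 8 h). For the small subunit they were 0.04, 0.02, 0.03 and 0.26 in the same order. No member was called between 0 h and 1 h (background 0.943% in either direction) or between 1 h and 3 h (background 1.42% in either direction). From 8 h to 24 h 49 of 58 genes stood higher at 24 h, where 52.0% of all genes did. After scaling to a common spread, the last step shrank to 0.07 for the large and 0.06 for the small subunit, and the step from 3 h to 8 h grew to 0.22 and 0.23. Which interval held the larger step therefore depended on the scaling.

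The level differed between kinds of clone on most paced arrays, as compared after the values were seen. Probes of these genes carried either an EST accession or a RefSeq accession, and 22 genes had both kinds measured at 24 h. For these genes the median at 24 h was 0.72 on EST clones and 0.26 on RefSeq-accession clones, and the EST clones were higher in 16 of 22. In sham the medians were 0.34 on EST clones and 0.32 on RefSeq-accession clones, with EST clones higher in 13 of 24. At the earlier times EST clones were higher in 17 of 23 genes (0 h), 11 of 24 (1 h), 17 of 25 (3 h) and 17 of 24 (8 h). The median gap, EST minus RefSeq-accession, was 0.18 (0 h), -0.01 (1 h), 0.11 (3 h), 0.16 (8 h) and 0.51 (24 h), against 0.02 in sham. Among 283 other genes with both kinds at 24 h, EST clones were higher in 50.9%. The share among other genes was 47.1% (0 h), 46.0% (1 h), 49.0% (3 h) and 50.8% (8 h), against 40.1% in sham. In sham the median gap of these other genes was -0.13, so sham was not free of a gap between kinds of clone. Rps18, Rps6 and Rpl27 showed the gap, at 1.47, 1.09 and 0.98 on EST clones against -0.36, -0.36 and -0.06 on RefSeq-accession clones at 24 h. In sham their gaps, EST minus RefSeq-accession, were 0.58, -0.97 and 0.64. The gap of Rpl27 was larger at 0 h (1.63) than at 24 h (1.04). EST clones were lower in 6 of the 22 genes. Among these, Rps15, Rpl29 and Rpl19 read 0.04, 0.05 and 0.41 on EST clones against 0.64, 0.54 and 0.87 on RefSeq-accession clones. With RefSeq-accession clones alone the large subunit median of 24 h minus sham was -0.03, so the sign of that comparison depended on the clones, although 24 h minus Pre stayed above 0 at 0.33. The part of the clones in the result was not tested.

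Other genes of translation were described beside them from 3 lists. The list of elongation, initiation and related genes known or thought to carry pyrimidine tracts had 14 of 19 genes on all 6 arrays. Its medians were 0.05 (0 h), 0.09 (1 h), 0.22 (3 h), 0.07 (8 h) and 0.53 (24 h), against 0.21 in sham. Against sham at 24 h Pabpc1, the poly(A)-binding protein, was highest at 1.51 and Eef1a2, the elongation factor of adult muscle, lowest at -0.66. In this list 10 of 14 genes stood above sham at 24 h, where 57.5% of all genes did, and 1 was called higher and none lower (background 3.02% higher, 2.80% lower).

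Ribosome biogenesis genes on all 6 arrays numbered 16 of 50 listed. Their medians were 0.14 (0 h), 0.04 (1 h), 0.16 (3 h), 0.19 (8 h) and 0.45 (24 h), against 0.01 in sham. At 24 h 11 of 16 (68.8%) were above sham, where 57.5% of all genes were. Ebna1bp2, a factor of large subunit assembly, was called higher at 1.04 (background 3.02%), and the nucleolar protein Ncl was lowest at -0.86. Mitochondrial ribosomal protein genes, which build the separate ribosome of mitochondria, had 38 genes on all 6 arrays. Their medians stayed between -0.04 (0 h) and 0.06 (3 h), with 0.02 at 24 h. At 24 h 21 of 38 stood above Pre, against 50 of 58 cytosolic genes. The difference between these lists was not tested, since genes of 1 array are not replicates.

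**Figure D5:**
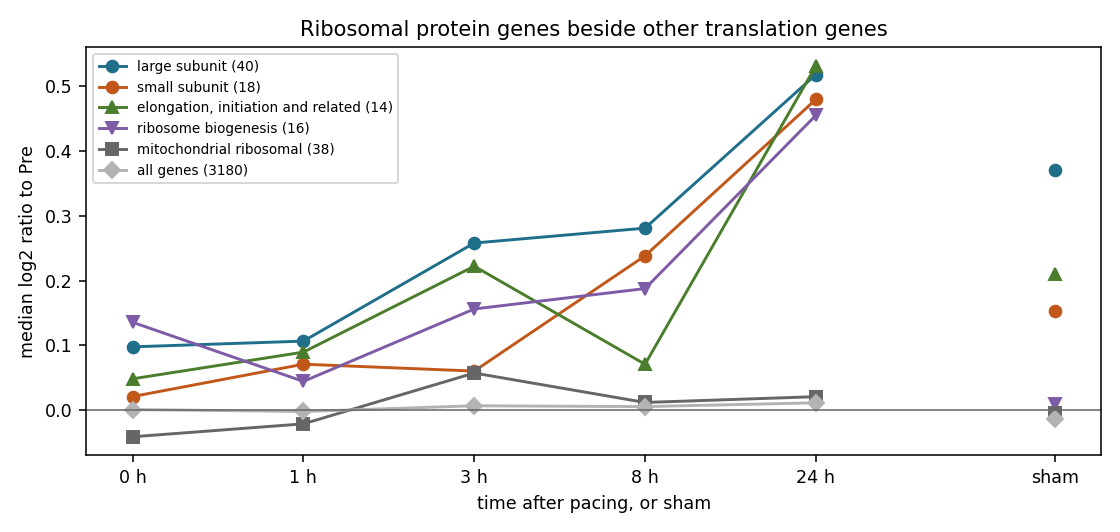
Median log2 ratio to Pre (vertical axis) of 6 gene sets by time after pacing and in sham (horizontal axis), with the number of genes in brackets. At 24 h the cytosolic ribosomal, the translation and the biogenesis lists lie between 0.45 and 0.53, while the mitochondrial ribosomal list lies at 0.02.

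Markers of the tissue and of other cells were read from the same arrays. The 11 measured muscle fibre markers had medians between -0.16 (8 h) and 0.02 (1 h). Fibroblast markers (6 of 10 measured) had medians of -0.09 (0 h), -0.20 (1 h), -0.35 (3 h), -0.39 (8 h) and -0.47 (24 h), against -0.12 in sham, with 6 of 6 below Pre at 8 h and 24 h. Immune markers (3 of 18 measured) had medians between -0.16 (sham) and 0.12 (0 h), and endothelial markers (6 of 9) between -0.25 (24 h) and 0.26 (3 h). Adipocyte and erythroid lists had 1 gene each on all arrays, Fabp4 at -0.12 at 24 h and 0.41 in sham and Hba-a1 at -0.31 at 24 h and 0.13 in sham, and no Schwann cell marker was measured on all arrays. Ratios hold no signal level, so the presence of a cell type could not be read from them. The part of these cell types in the ribosomal protein values was not tested, and in whole muscle a change in cell makeup and a change of RNA per cell cannot be told apart.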

How the data were processed

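The deposited log10 ratios cover 13872 probes on every array, with 485 cells empty in sham and none elsewhere, and per the labels channel 1 held muscle RNA and channel 2 the reference Pre. The log base, which the labels do not state, was read from 47 cells whose value is a rounding residue of base 10. Scanner, background correction and normalisation are not given in the sources used here. Exact zeros (201 to 1762 per array) and values shared within a run of 289 probes (154 in sham) were treated as unmeasured. Ratios were converted to log2 and centred on each array's median, and measured probes with a single symbol in the platform annotation were averaged by gene (6609 probes; 6599 matched GRCm38.p6 by Entrez ID). Python 3.11.15 with pandas 2.3.3 was used, and the step from probes to list medians at 24 h against Pre was tested on simulated data with known shifts, at a tolerance of 0.2 log2 units. Differences from sham had no such test. Depth is unknown, and the number of arrays limits the precision.

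Named were members at least 2-fold in a comparison, the highest and lowest per subunit, stalk genes, Rpsa, Rps6, Rpl3, Rpl3l, members with 4 or more probes, and the extremes of other lists at 24 h minus sham. Other members named to show probe disagreement, or for their role or a missing array, were picked after their values were seen. Members and lists were chosen with earlier results of these data known, and the structural roles were assigned after the values were seen.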

Additional observations from a re-analysis of the deposited data

Results flagged for a closer look

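The ribosomal protein genes lay on opposite sides of sham at 2 times, and that difference was not tested, since each time had 1 array and all share the sham array. Large subunit genes had a median of 0.19 at 24 h minus sham and -0.27 at 0 h minus sham. Small subunit genes had a median of 0.21 at 24 h minus sham and -0.22 at 0 h minus sham. On RefSeq-accession clones alone the large subunit median was -0.030 at 24 h minus sham and -0.28 at 0 h minus sham. For the large subunit the opposite sides therefore did not hold on those clones, while the small subunit medians kept their sides of sham.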

How the results depend on the processing

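No paired analysis was possible because each group has 1 array. A median counted as moved when it shifted by 0.1 or more in log2 units, and a count when it changed by more than 1.5 times. A sign change of a reported median under 0.1 in size was not counted as a reversal. Leaving out centring, centring without the ribosomal protein genes and taking the median of probes moved no result by these limits. With zeros and shared values kept, the members called were 3 in sham against Pre (reported 1), 5 at 0 h (reported 2), 2 at 1 h and 2 at 3 h against sham, and the small subunit step from 3 h to 8 h was 0.15. With probes measured on all 6 arrays, 1 member was called at 0 h against Pre, 1 at 24 h against sham and 1 between 0 h and 1 h. With genes measured on the arrays of each comparison, 3 were called in sham against Pre, 4 at 0 h and 2 at 1 h against sham, and the small subunit median at 3 h against sham was -0.018. With genes of 2 or more probes, the small subunit medians against Pre were 0.15 (0 h), 0.34 (3 h) and 0.58 (24 h), against 0.39 in sham. In that setting large minus small was, with the sign turned, -0.057 (0 h), -0.032 (1 h), -0.091 (3 h) and -0.018 (24 h), against -0.0071 in sham. The small subunit gave -0.20 at 1 h against sham and 0.15 at 3 h minus 1 h. Ribosome biogenesis, a list then left with Nhp2 and Mybbp1a alone, gave 1.03 against Pre and 0.87 against sham at 24 h. Called members were 1 at 3 h, 5 at 24 h and 0 in sham against Pre. Against sham they were 0 at each time up to 8 h and 1 at 24 h, and between 3 h and 8 h they were 0, fewer genes being tested. At 1.5-fold in either direction, members called against Pre were 1 (0 h), 6 (3 h), 7 (8 h) and 24 (24 h), against 10 in sham, of 58. The shares of all genes were 9.69%, 17.3%, 6.82% and 17.5%, against 18.6% in sham. No member was called at 1 h against Pre (background 2.80%). Those called lower than Pre were Rps23 (0 h and 8 h), Rpl36al (3 h) and Rps16 (8 h). Against sham, members called at 1.5-fold in either direction were 8 (0 h), 2 (1 h), 6 (3 h), 3 (8 h) and 11 (24 h). The shares of all genes were 23.6%, 11.1%, 10.8%, 17.6% and 22.1%. Scaling the arrays to a common spread gave large subunit medians of 0.40 at 8 h and 0.26 in sham against Pre, of -0.16 (0 h), -0.032 (1 h) and 0.19 (8 h) against sham, and a small subunit median of 0.17 at 8 h against sham. Scaled steps were -0.0031 (3 h minus 1 h, sign turned), 0.22 (8 h minus 3 h) and 0.069 (24 h minus 8 h) for the large subunit and 0.23 and 0.062 for the small subunit in the last 2 steps. Scaled calls against Pre were 0 (3 h), 2 (8 h), 1 (24 h) and 0 in sham, of 58. Of 3180 genes, those called higher and lower were 42 and 10 (3 h), 99 and 50 (8 h), 72 and 28 (24 h) and 20 and 8 (sham). Scaled calls against sham were 1 (0 h), 0 (3 h) and 0 (24 h). Of all genes they were 73 and 72 (0 h), 17 and 9 (3 h) and 41 and 34 (24 h), higher and lower. Scaled calls were 3 between 3 h and 8 h (all genes 44 higher, 37 lower) and 0 between 8 h and 24 h (all genes 13 higher, 27 lower). EST clones alone, chosen after seeing the data, gave small subunit medians against Pre of 0.15 (0 h), 0.32 (3 h), 0.49 (8 h) and 0.74 (24 h), against 0.42 in sham, -0.19 at 1 h against sham, 0.14 at 3 h minus 1 h, and a large subunit median of 0.71 at 24 h. RefSeq-accession clones alone, also chosen after seeing the data, gave large subunit medians of 0.16 at 8 h and 0.33 at 24 h against Pre, -0.20 at 3 h, -0.14 at 8 h and, with the sign turned, -0.030 at 24 h against sham, and 0.13 at 24 h minus 8 h, and small subunit values of 0.21 at 3 h against Pre and 0.22 at 1 h minus 0 h. Apart from the effect of fewer genes, the cause was not tested. With zeros kept, or with other choices of probes or genes, shares of all genes at 2-fold are not given. Member calls in those settings therefore cannot be set against a background. Without signal values, what dim spots limit is unknown.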

Other observations

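Probes left out by the naming rule also gave ratios to Pre. Probes annotated to Rps27 together with Rps27rt read 1.30, 1.00 and 0.38 at 24 h, against 0.45, 0.83 and 0.77 in sham. Probes annotated to Rpl12 together with the small nucleolar RNA gene Snora65 read 0.92 and 1.33 at 24 h, against 0.64 and 0.76 in sham, while the Rpl12 probe that had 1 symbol read 0.44 at 24 h and 0.40 in sham. The probe annotated to Rps3 and Snord15b read 1.06 at 24 h and 0.42 in sham, and the probe annotated to Rpl5 and Dipk1a read 1.28 at 24 h and 0.46 in sham. The 3 probes of the pseudogene Rpl34-ps1 read 0.76, 0.69 and 0.64 at 24 h, against 0.06, -0.06 and -0.38 in sham. Fau, which codes for a ubiquitin-like protein fused to a small subunit protein, stood at 0.03 at 24 h and -0.33 in sham.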
